A study of Mus musculus with 15 samples.

Results

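The genes described here were the pancreatic serine proteases, 10 genes whose products make up much of the protein that acinar cells of the pancreas secrete. They were chosen by name, as genes of these enzyme families, with earlier results of these data known: the trypsinogens Prss2, Try4 and Try5, the chymotrypsinogens Ctrb1, Ctrl and Ctrc, the elastases Cela1, Cela2a and Cela3b, and the tissue kallikrein Klk1. All 10 are listed in the tables of raw counts, which hold up to 49585 genes, and all 10 passed the filter on low counts in each comparison. RNA-Seq of mouse pancreas was used to ask what the kinase HPK1, which is encoded by Map4k1, and its kinase-dead mutant M46 do in acinar cells. The 15 libraries form 3 separately counted tables, each with its own control group. According to the labels, every library held RNA pooled from 3 mice of the C57BL/6 background.

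MC libraries (n = 3), labelled HPK1-M46 transgenic, and their controls (n = 3), labelled B control, came from mice of 2 months. The letter B stands for Bac-cre, a tamoxifen-inducible Cre under the elastase I promoter, so the M46 transgene was switched on by the promoter of a gene that is itself described here, Cela1. The libraries labelled HC (n = 3; HPK1/B) and their controls (n = 2; WT) came from mice of 4 months. The control of HC was thus labelled without Cre, whereas the control of MC was labelled with it. The study treated the mice of both experiments with cerulein, a cholecystokinin analog that sets off acute pancreatitis. KC libraries (n = 2) came from mice of 15 months with Bac-cre, and KMC libraries (n = 2) from mice of 9 months that carried M46 in addition. The KC and KMC tissue is labelled pancreas and was described by the study as ductal adenocarcinoma. Age differed between KMC and KC, so that age and genotype cannot be told apart.

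Digestive serine proteases are made as inactive zymogens, packed into zymogen granules and carried to the gut, where enteropeptidase cleaves trypsinogen to trypsin. Trypsin then activates the other zymogens, trypsinogen included. Within the acinar cell, the lysosomal protease cathepsin B (Ctsb) can activate trypsinogen, which is an early event of pancreatitis, whereas the inhibitor Spink1 blocks trypsin and chymotrypsin C (Ctrc) degrades trypsinogen. Their genes are driven by acinar transcription factors such as Ptf1a, Rbpjl and Nr5a2, and their mRNAs are among the most abundant of the acinar cell.

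The trypsinogen genes lie side by side between the T cell receptor beta genes, and they were copied from each other. On chromosome 6 of GRCm38, the 11 trypsinogen genes listed here, the pseudogene Gm5409 included, spanned positions 40964754 to 41525079. The promoters of Try4 and of the minor trypsinogen genes Prss1 and Gm5771 are shown because they are alike close to the start, while in MC the levels of Try4 lay below and those of Prss1 and Gm5771 above those of the controls. The 100 bases before the RefSeq start of each gene (GRCm38.p6) are written 5′ to 3′ on the strand of the gene, with E-boxes (CANNTG), the letters TTTCCC or GGGAAA and the letters TATAAA in capitals.
Try4 (chr6:41302172-41302271, + strand): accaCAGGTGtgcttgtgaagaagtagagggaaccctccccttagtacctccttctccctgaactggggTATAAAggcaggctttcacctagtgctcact
Prss1 (chr6:41458830-41458929, + strand): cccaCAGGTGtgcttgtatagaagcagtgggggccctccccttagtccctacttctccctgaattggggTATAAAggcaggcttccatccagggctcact
Gm5771 (chr6:41392256-41392355, + strand): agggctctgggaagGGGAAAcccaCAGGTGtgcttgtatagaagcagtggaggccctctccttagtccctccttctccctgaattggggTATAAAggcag
Over the 250 bases before the start, the promoters of Prss1 and Gm5771 were 90.4% identical, and those of Try4 and Prss1 were 72.8% identical.

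The promoter of Prss2, a major trypsinogen, the promoter of Ctrb1, the most abundant gene of all 10, and that of Cela1, whose promoter drove Cre, are shown for comparison, with the nuclear receptor motif AAGGTCA also in capitals.
Prss2 (chr6:41521676-41521775, + strand): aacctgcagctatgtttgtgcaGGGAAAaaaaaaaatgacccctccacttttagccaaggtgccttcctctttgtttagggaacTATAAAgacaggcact
Ctrb1 (chr8:111691011-111691110, - strand): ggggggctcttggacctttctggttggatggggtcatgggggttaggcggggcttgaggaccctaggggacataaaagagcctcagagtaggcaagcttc
Cela1 (chr15:100687921-100688020, - strand): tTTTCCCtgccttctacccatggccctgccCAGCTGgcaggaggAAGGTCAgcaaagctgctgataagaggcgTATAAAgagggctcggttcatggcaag
Of the 10 genes, 8 had a promoter in the RefSeq table. Within 250 bases, searched on both strands, CANNTG was found in 8 of these 8 promoters and in 66.0% of all 27025 promoters. TTTCCC was found in 4 of 8 against 21.9% of all, AAGGTCA in 2 of 8 against 4.05%, and TATAAA in 3 of 8 against 13.0%. AAGGTCA and CANNTG do not share positions in the Cela1 promoter shown.

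Map4k1, the gene of the transgenes, had 7.85, 8.47 and 9.03 CPM (counts scaled to 1e+06 total counts) in MC and 3.37, 4.67 and 1.65 CPM in its controls. In KMC it had 7.35 and 24.6 CPM, and in KC 0.265 and 1.18 CPM. The libraries labelled HC had 7.28, 5.0 and 7.85 CPM, below both of their controls with 15.3 and 11.9 CPM. The label would give the opposite direction. However, the study describes a role of HPK1 in T cells, and leukocyte markers differed in the same directions as Map4k1. They summed to 696 to 1045 CPM in HC against 1993 to 2176 CPM in its controls, and were higher in MC and KMC. Map4k1 of leukocytes and of the transgene was not told apart, so it could not check the label. Every direction given for HC is that of the libraries labelled HC. Total counts per library ranged from 29766575 to 38745907, and a gene at 0 could have had up to 3 counts, which is 0.0774 to 0.101 CPM (counting error only). KC and KMC also differed in Xist, with 0.331 and 0.265 CPM in KC and 504 and 663 CPM in KMC, so that sex was not balanced between them. Stomach markers were high in the HC table: the 4 genes summed to 2858 to 3868 CPM in HC and 456 to 1079 CPM in their controls, against at most 78.8 CPM in any library of the other tables (2 of the 4 are listed in the MC table). The part of these differences in the results below was not tested. In tissue RNA, fewer acinar cells and less RNA per acinar cell cannot be told apart.

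The 10 genes made up 30.9, 27 and 33.6% of all counts in the MC controls and 29.0, 24.4 and 24.6% in MC. In KC they made up 39.4 and 32.9%, and in KMC 26.8 and 13.7%. In the HC table they were a small part of every library, with 4.92 and 3.83% in the controls and 3.91, 5.29 and 3.45% in HC. With these totals, the 95% Wilson intervals of single libraries were as narrow as 29.02 to 29.05% for MC 1, so counting error was small beside the spread between libraries.

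The share of the 10 genes was 26.0 ± 2.62% in MC against 30.5 ± 3.32% in its controls (SD, n = 3 each), and the groups overlapped. A two-sided exact permutation test gave p = 0.200, where 3 against 3 libraries cannot go below 0.100. In the libraries labelled HC the share was 4.21 ± 0.958% (SD, n = 3) against 4.38 ± 0.769% (SD, n = 2), with p = 1.0 in the exact permutation test and a smallest possible p of 0.200. KMC had 20.3 ± 9.27% against 36.1 ± 4.64% in KC (SD, n = 2 each), and both KMC libraries lay below both KC libraries. The exact permutation p was 0.333, which is the smallest that 2 against 2 libraries can give. After Benjamini-Hochberg adjustment over 5 tests, the share and its 4 classes, no p of the exact permutation tests was below 0.333.

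**Figure D1:**
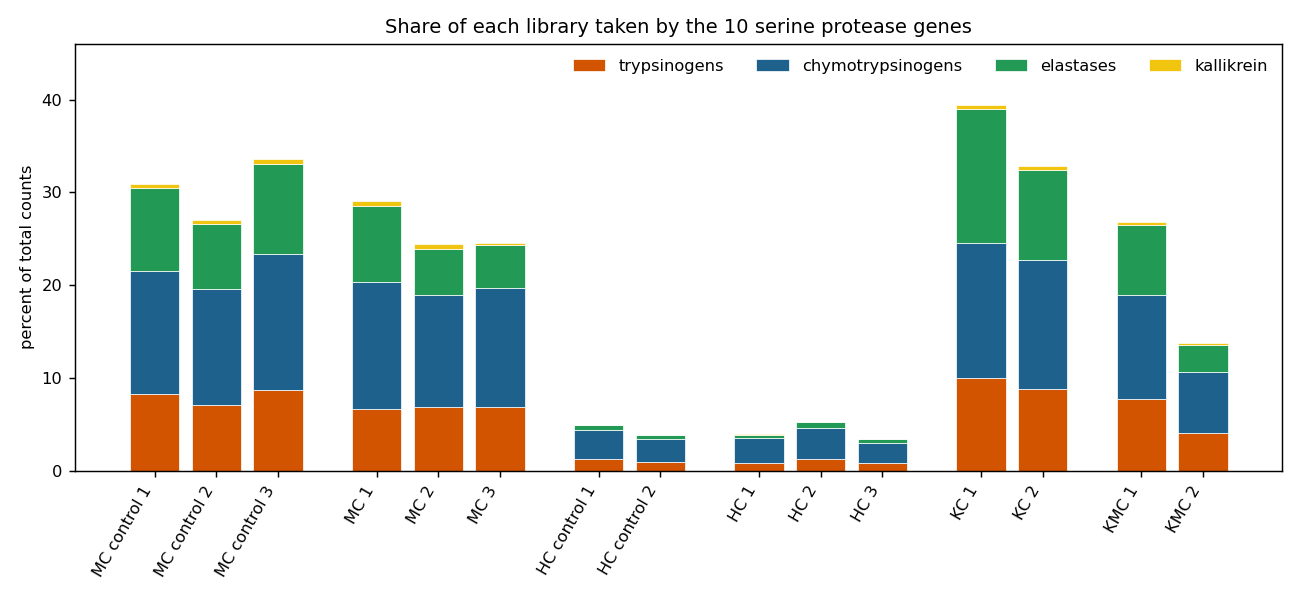
Percent of the total counts of each library (y axis, from 0) taken by the 10 serine protease genes, split by class, for the 15 libraries on the x axis. The bars of the HC table stay between 3.45 and 5.29%, and the KMC 2 bar, at 13.7%, is the lowest of the other tables.

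Per kb of exon, the level of Ctrb1 was the highest in all 6 groups. In the MC controls it had 139000 ± 9675 CPM per kb (SD, n = 3). Prss2 (34020 ± 4775 CPM per kb), Try5 (32850 ± 3138) and Try4 (28520 ± 3390) came next and their ranges overlapped, and per kb of first transcript Try5 (37000 ± 3534) stood above Prss2. Of Cela1 (18700 ± 2542 CPM per kb), Cela2a (14320 ± 2751), Ctrl (10730 ± 1905) and Cela3b (10650 ± 2165), each range overlapped that of the next gene. Klk1 (4624 ± 522 CPM per kb) and Ctrc (65.4 ± 19.7) stood below them with no overlap. The annotated exons of Cela1 together hold 2306 bases and its first transcript 1108, and with the latter length it moved from place 5 to place 2, an alternative added after the data were seen.

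The order differed between the control groups of the 3 tables, which were prepared separately and were not tested against each other. In KC, Try4 (48830 CPM per kb of exon) and Prss2 (43520) followed Ctrb1 (138000). There Try5 (21420) came in place 6, with a range that overlapped that of Cela2a in place 5. In the HC controls, Prss2 (7201 CPM per kb of exon) and Try5 (4305) followed Ctrb1 (31710). The elastase Cela1, in place 4 in KC and 5 in the MC controls, came in place 9 there with 209 CPM per kb of exon. Per kb of first transcript, Cela1 came in place 2 in KC and in the MC controls and in place 8 in the HC controls. The ratio of Try4 to Try5 counts was 0.761, 0.746 and 0.802 in the MC controls, 0.237 and 0.224 in the HC controls and 2.02 and 2.03 in KC, although the first transcripts of both genes have 801 bases. Within each control group the ratio therefore varied little, and the 3 groups did not overlap. Try4 and Try5 shared 97.1% of the letters of these transcripts, and 30.2% of the 100-base windows of Try4 and 25.6% of those of Try5 also occur in another gene. Reads that fit several genes are left out or split by the counting, so the levels of both genes are uncertain.

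**Figure D2:**
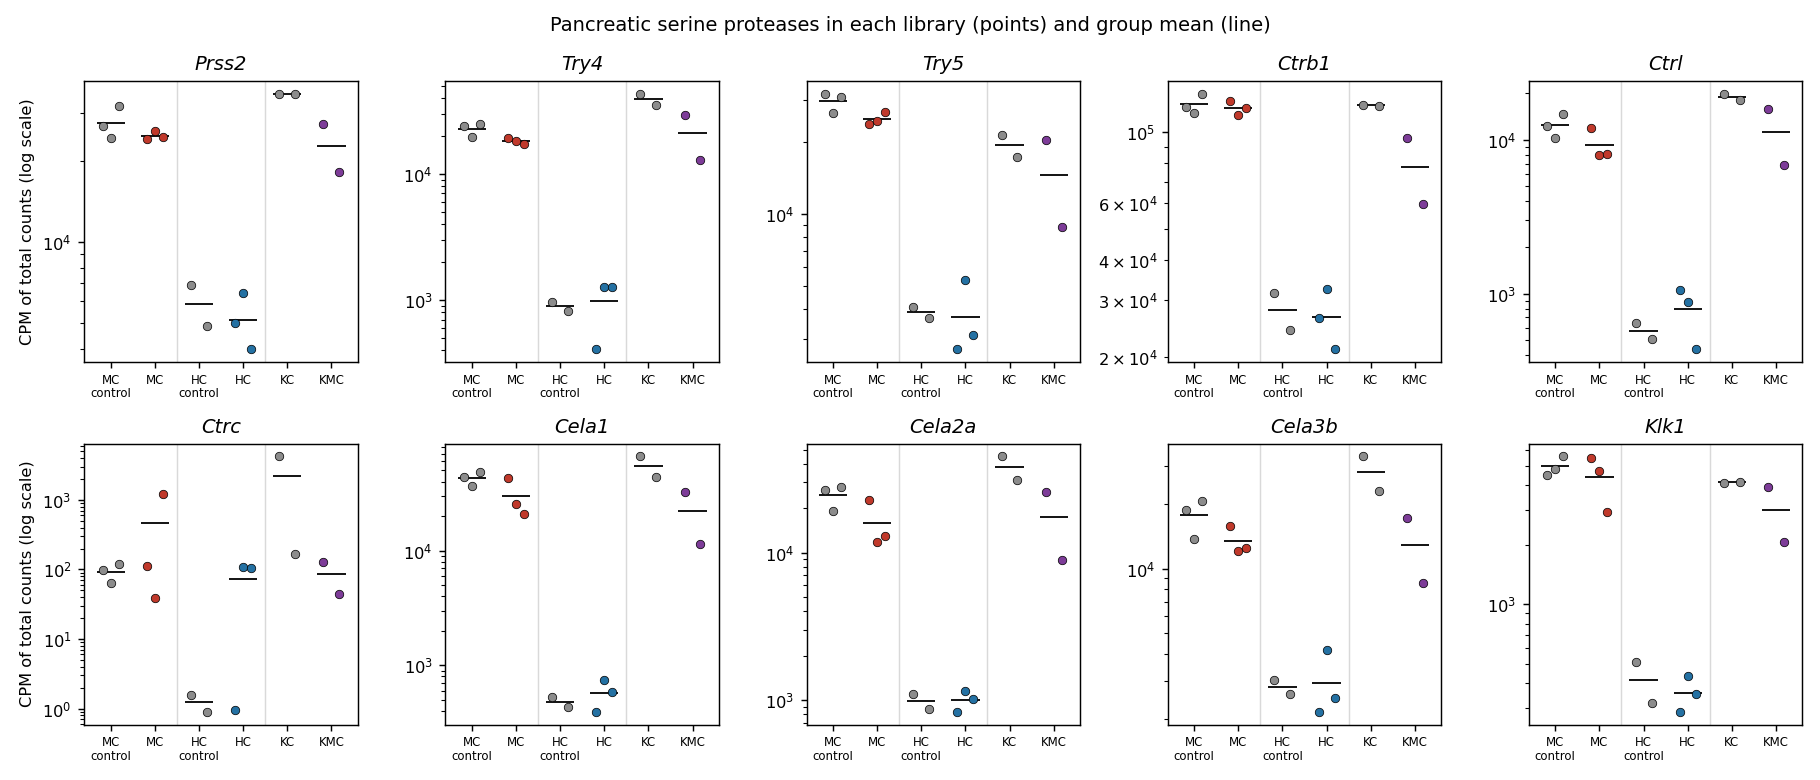
Level of each of the 10 genes in each library (points) and the group mean (line), in CPM of total counts on a log axis that differs between panels, with controls in grey. In the KMC table every panel but that of Try5 has both KMC libraries below both KC libraries, and Ctrc is the gene with the widest spread within groups.

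None of the 10 genes passed the threshold in any comparison with edgeR's quasi-likelihood test (Benjamini-Hochberg adjusted p of at most 0.05 over all genes tested with a log2 fold change of 1 or more in either direction). In MC against control, the threshold was passed by 0% of the 13902 genes tested, while 2038 genes had an unadjusted p below 0.05 (9.2% of all genes higher and 5.46% lower, and 0 of the 10), and DESeq2 called 0 of the 10. In HC against control it was passed by 0.565% of 18407 genes, and in KMC against KC by 0.0191% of 15733 genes. At an unadjusted p below 0.05, Ctrc was the 1 gene of the 10 in HC, where 8.39% of all genes were higher and 7.47% lower, and in KMC, where 16.1% were higher and 9.48% lower. In HC, 0 of the 10 genes had groups without overlap in CPM of total counts, against 15.1% of all genes higher and 18.5% lower. The median log2 fold change of the 10 genes was -0.66 in MC, 0.07 in HC and -2.11 in KMC, where the median over all genes tested was -0.02, 0.00 and 0.03. These values are scaled by the TMM method, which assumes that most genes do not differ. In KMC that scaling mattered: with library size alone, the median of all genes was 1.47 and that of the 10 genes was -0.82. In MC the medians with library size alone were 0.29 and -0.29, and in HC they were -0.03 and 0.04. With 1 library left out, the median of the 10 genes in KMC ranged from -3.43 (without KMC 1) to -1.45 (without KMC 2), and that in MC from -0.88 (without MC control 2) to -0.41 (without MC control 3).

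The tools disagreed on KMC. DESeq2, the tool of the study, called 10 of the 10 genes lower in KMC, against 4.47% of all genes tested, with adjusted p from 7.36e-04 (Cela3b) to 0.031 (Try5). By edgeR the adjusted p of the 10 genes ranged from 0.13 (Ctrc) to 0.71 (Ctrb1). The standard errors of edgeR for the log2 fold changes were wide, from 1.22 (Klk1) to 3.06 (Ctrb1). In CPM of total counts, 9 of 10 genes had both KMC libraries below both KC libraries, against 1.28% of all genes lower and 85% higher in this way. Scaled by TMM, 10 of 10 were lower without overlap, against 30.9% of all genes.

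**Figure D3:**
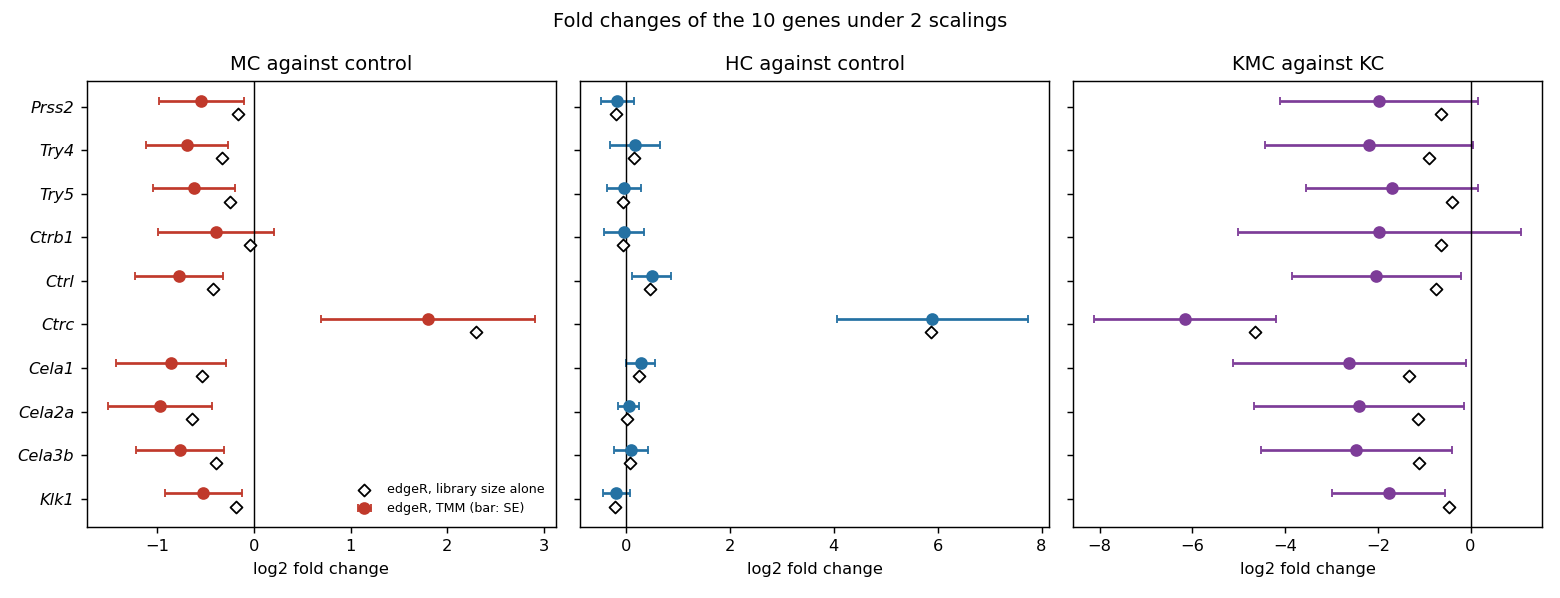
Log2 fold change of each gene in the 3 comparisons, by edgeR with TMM scaling (filled points, bars show the standard error) and with library size alone (open diamonds), with its own x axis in each panel. In KMC against KC all 10 points are below 0 under both scalings, and the diamonds lie closer to 0, at -0.40 for Try5.

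Prss2 (chr6:41521787-41525079, + strand), an anionic trypsinogen, had 23991, 25794 and 24563 CPM in MC and 26962, 24271 and 31941 CPM in its controls. The groups overlapped, and the log2 fold change was -0.55 (SE 0.44, edgeR adjusted p = 0.54). The libraries labelled HC had 4963, 6417 and 3985 CPM against 6885 and 4853 CPM, with a log2 fold change of -0.17 (SE 0.31). KC had 35473 and 35470 CPM, and KMC had 27314 and 18210 CPM, both lower. Its log2 fold change in KMC was -1.98 with TMM scaling and -0.64 with library size alone.

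Try4 (chr6:41302269-41305532, + strand), a second major trypsinogen, had 19077, 18190 and 17368 CPM in MC and 24156, 19724 and 24657 CPM in the controls. It was the 1 gene of the 10 whose MC libraries all lay below all controls in CPM of total counts, which held for 0.762% of all genes tested, yet its log2 fold change of -0.69 (SE 0.42) had an edgeR adjusted p of 0.44. After TMM scaling the groups overlapped. In HC the libraries had 409, 1281 and 1275 CPM against 972 and 822 CPM, with HC 1 below and the other two above both controls. KMC had 29393 and 12929 CPM against 43118 and 35108 CPM in KC.

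Try5 (chr6:41311233-41316841, - strand), the neighbor of Try4 on the opposite strand, had 23821, 24457 and 26580 CPM in MC and 31755, 26421 and 30729 CPM in the controls. MC 3 lay just above the lowest control. The log2 fold change was -0.62 (SE 0.42, edgeR adjusted p = 0.49). HC libraries had 2719, 5266 and 3103 CPM against 4092 and 3674 CPM. In KMC it had 20365 and 8830 CPM against 21346 and 17286 CPM, so that KMC 1 lay inside the KC range, the only gene of the 10 of which this was true.

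The ratio of Try4 to Try5 counts was 1.44 and 1.46 in KMC against 2.02 and 2.03 in KC, a description of a pair chosen after its values were seen. The trypsinogens as a class took 28.7 and 29.1% of the protease counts in KMC against 25.4 and 26.8% in KC, without overlap (exact permutation p = 0.333, the smallest possible). In MC their share was 26.3 ± 2.84% against 26.3 ± 0.450% (SD, n = 3 each; exact permutation p = 1.0).

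Other trypsinogen genes of the cluster had patterns of their own. Prss1 and Gm5771, whose promoters are shown above, and Gm10334 were named after their values were seen, and the rule named 2210010C04Rik and Prss3 as the most abundant of this list. Prss1 had 529, 309 and 2200 CPM in MC and 61.2, 188 and 73.7 CPM in the controls. Gm5771 had 1591, 1474 and 6191 CPM in MC and 760, 889 and 748 CPM in the controls, and Gm10334 had 615, 341 and 2562 CPM against 101, 214 and 71.8 CPM. MC 3 was the highest library for all 3 genes. As they were picked by these values, their position above the controls was part of the choice.

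Prss3 had 4657, 3793 and 14019 CPM in MC and 2464, 2431 and 2215 CPM in the controls. The log2 fold changes were 2.96 (Prss1, SE 0.73), 2.91 (Gm10334, SE 0.71), 1.57 (Gm5771, SE 0.53) and 1.28 (Prss3, SE 0.50), and the edgeR adjusted p ranged from 0.16 to 0.31. DESeq2 called Prss1, Gm5771 and Gm10334 higher, with adjusted p of 0.021, 0.027 and 0.020, against 3.11% of all genes. Without MC 3 the log2 fold changes were 1.84 for Prss1, 1.77 for Gm10334, 0.67 for Gm5771 and 0.57 for Prss3. By contrast, 2210010C04Rik, also a trypsinogen, had a log2 fold change of -0.95 (SE 0.47, edgeR adjusted p = 0.38), on the side of Prss2, Try4 and Try5.

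Prss1, Prss3, Gm5771 and Gm10334 together took 7.93, 6.63 and 22.8% of all trypsinogen counts in MC and 3.03, 3.98 and 2.68% in the controls, which is a description with no test, since these genes were picked after their values were seen. All trypsinogen genes other than Prss2, Try4 and Try5 took 28.2, 23.3 and 37.5% in MC and 25.8, 24.7 and 24.7% in the controls, and these groups overlapped. Of the others, Try10 had a log2 fold change of -0.55 (SE 0.23, edgeR adjusted p = 0.33) and 1810009J06Rik of -0.21 (SE 0.29, edgeR adjusted p = 0.73) in MC. In KMC Prss1, Prss3, Gm5771 and Gm10334 took 10.9 and 1.57% against 3.89 and 3.23% in KC, with KMC 1 above and KMC 2 below both KC libraries. In HC these 4 genes took 12, 5.38 and 3.45% against 3.88 and 6.80%, with HC 1 the highest. Of their 100-base windows, 45.0% (Prss3), 41.8% (Gm10334), 25.5% (Gm5771) and 21.8% (Prss1) also occur in another gene, mostly in each other, so how the counts divide among them is uncertain.

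**Figure D4:**
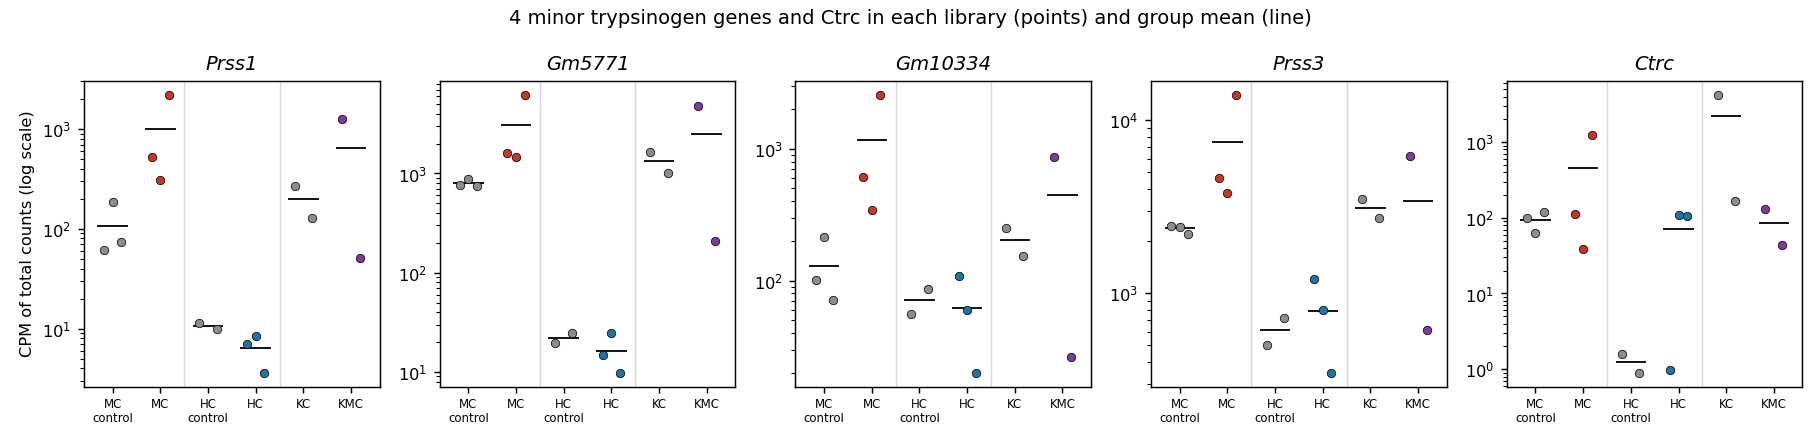
Levels of Prss1, Gm5771, Gm10334, Prss3 and Ctrc in each library (points) and the group mean (line), in CPM of total counts on a log axis that differs between panels. MC 3 is the highest MC library in all 5 panels, while KMC 1 is high for the 4 trypsinogens only and KC 1 is high for Ctrc.

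Ctrb1 (chr8:111686519-111691010, - strand), which encodes chymotrypsinogen B, the main chymotrypsin precursor of the mouse, was the most abundant of the 10 genes in every library. It had 124815, 113283 and 119071 CPM in MC and 119841, 114920 and 131459 CPM in the controls. The groups overlapped almost fully, and the log2 fold change was -0.39 (SE 0.60, edgeR adjusted p = 0.76). For HC the levels were 26267, 32402 and 21090 CPM against 31458 and 24232 CPM, and in KMC 95936 and 59532 CPM against 121709 and 120629 CPM.

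Within the protease counts, Ctrb1 took a larger part in MC, with 43.0, 46.4 and 48.4% against 38.7, 42.5 and 39.1% in the controls. All MC libraries lay above all controls, and the exact permutation p was 0.100, the smallest possible (0.60 after Benjamini-Hochberg adjustment over the 10 genes). In the HC table it took 67.2, 61.3 and 61.2% in HC and 63.9 and 63.2% in the controls, the largest part of any table. In KMC it took 35.7 and 43.3% against 30.9 and 36.7%, with overlap.

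Ctrl (chr8:105932003-105933862, - strand), which encodes a chymotrypsin-like protease, had 11887, 7932 and 8023 CPM in MC and 12352, 10234 and 14638 CPM in the controls, with a log2 fold change of -0.77 (SE 0.45, edgeR adjusted p = 0.43). The HC levels were 1052, 878 and 436 CPM against 641 and 506 CPM, so HC 3 lay below and the other two above both controls. In KMC it had 15743 and 6872 CPM against 19894 and 18170 CPM, a log2 fold change of -2.03 with TMM scaling and -0.75 with library size alone.

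Ctrc (chr4:141814962-141846359, - strand), which encodes chymotrypsin C, had the widest spread within groups of the 10 genes. In MC it had 112, 38.3 and 1225 CPM, and in the controls 98.4, 63.1 and 119 CPM. MC 3 alone was high, and the log2 fold change was 1.80 (SE 1.1, edgeR adjusted p = 0.44) with it and -0.58 without it. In HC the gene had 0.969, 108 and 106 CPM against 1.56 and 0.899 CPM, that is 33, 3445 and 3392 counts against 55 and 34 counts. HC 1 was at the level of both controls, and HC 2 and HC 3 were far above them. The log2 fold change was 5.90 (SE 1.84, edgeR adjusted p = 0.21), and DESeq2 called it higher with an adjusted p of 0.014, where it called 1.45% of all genes higher. Leaving out HC 1, the HC library at the control level, favors a difference by that choice. Without HC 1 the log2 fold change was 6.48 (edgeR adjusted p = 8.46e-04), in a fit that called 379 of 18143 genes. Without HC 2 it was 5.49, as it was without HC 3, and edgeR did not call Ctrc in either fit.

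In KC, Ctrc had 4202 and 165 CPM, and in KMC 129 and 44.0 CPM. KC 1 was high and the other three libraries were not. The log2 fold change was -6.16 (SE 1.96, edgeR adjusted p = 0.13) with all libraries and -1.80 (adjusted p = 0.56) without KC 1. Without KMC 1 it was -7.76 (edgeR adjusted p = 0.019), where KMC 2 stood alone and was assumed to vary like the KC libraries. With library size alone it was -4.66 and passed the threshold (edgeR adjusted p = 2.32e-06). Per 1000 counts of Ctrb1, the Ctrc counts were 0.896, 0.338 and 10.3 in MC, 3.34 and 5.05 in HC 2 and HC 3, and 34.5 in KC 1, against 0.0369 in HC 1 and at most 1.36 in the other libraries. A read-through transcript of Ctrc shares 305 exon bases with the neighboring gene Cela2a, which is 21.4% of the exon bases of Ctrc and 17.7% of those of Cela2a, so some reads cannot be assigned to either gene. The antisense gene Ctrcos, whose exons share 0 bases with those of Ctrc, had at most 0.220 CPM in the HC table and 3.24 CPM in KC 1.

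Cela1 (chr15:100674421-100687921, - strand), which encodes pancreatic elastase 1, had 42737, 25739 and 20689 CPM in MC and 44232, 36779 and 48342 CPM in the controls. MC 1 was at the level of the controls and the other two lay below all of them. The log2 fold change was -0.86 (SE 0.57, edgeR adjusted p = 0.47). HC had 393, 749 and 584 CPM against 529 and 437 CPM. In KMC it had 32606 and 11361 CPM against 66233 and 43562 CPM, the lowest log2 fold change of the 10 genes after Ctrc, at -2.62 with TMM scaling and -1.32 with library size alone.

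Cela2a (chr4:141814962-141826160, - strand), another elastase, had 22649, 11841 and 13021 CPM in MC and 26694, 19249 and 28056 CPM in the controls, with the same library, MC 1, inside the control range. The log2 fold change was -0.97 (SE 0.54, edgeR adjusted p = 0.41). The libraries labelled HC had 831, 1146 and 1008 CPM against 1091 and 872 CPM, and in KMC 25886 and 8949 CPM against 44848 and 31078 CPM. The last exon of Cela2a also overlaps 94 exon bases of Casp9 on the opposite strand.

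Cela3b (chr4:137420999-137430540, - strand), an elastase with the near copy Cela3a, had 15818, 12132 and 12460 CPM in MC and 18782, 13710 and 20682 CPM in the controls, with a log2 fold change of -0.77 (SE 0.46, edgeR adjusted p = 0.44). HC libraries had 2163, 4197 and 2517 CPM against 3034 and 2609 CPM. In KMC it had 17223 and 8591 CPM against 33161 and 22823 CPM. Of its 100-base windows, 12.6% also occur in Cela3a.

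The elastases as a class took a smaller part of the protease counts in both KMC libraries than in KC, while the MC groups overlapped. In KMC they took 28.2 and 21% against 36.6 and 29.7% in KC, without overlap (exact permutation p = 0.333, the smallest possible), and Cela1 by itself took 12.1 and 8.27% against 16.8 and 13.3%. In MC the elastases took 28.0, 20.4 and 18.8% against 29.0, 25.8 and 28.9% (exact permutation p = 0.200). MC 1 lay inside the control range. In the HC table they took 8.66, 11.5 and 11.9% against 9.46 and 10.2%, a smaller part than in the other tables, where the lowest was 18.8%.

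**Figure D5:**
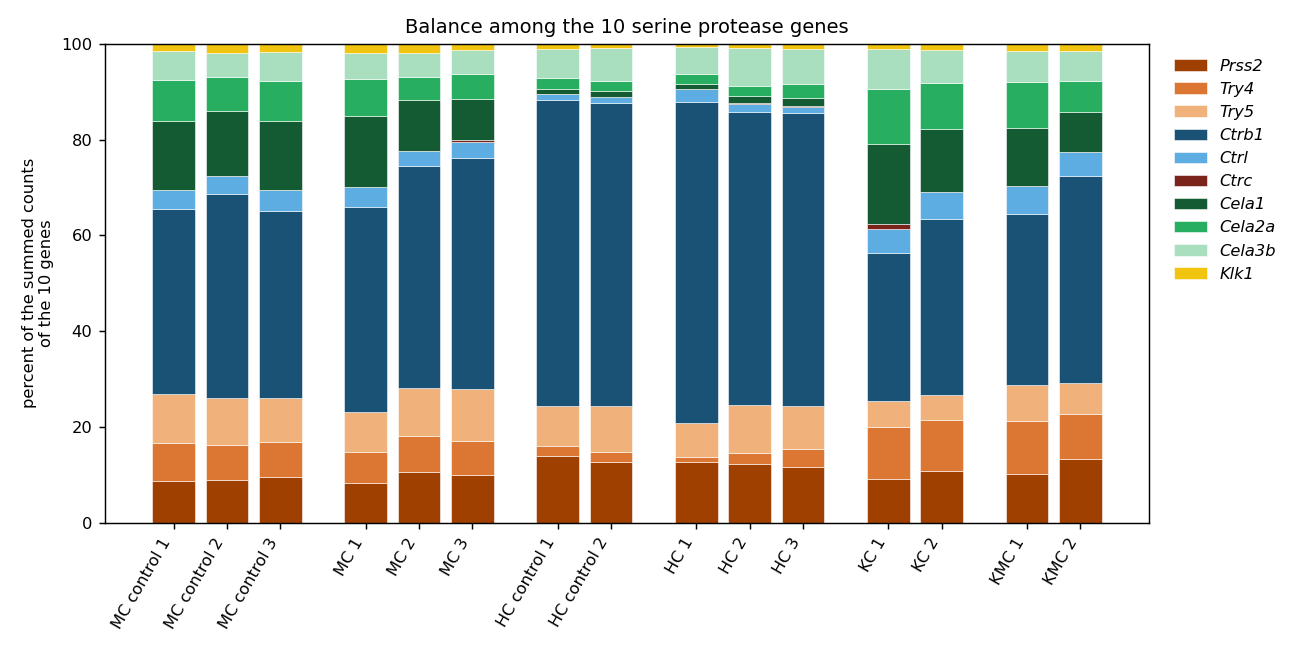
Percent of the summed counts of the 10 genes taken by each gene (y axis, 0 to 100) in the 15 libraries on the x axis. Ctrb1 takes 61.2 to 67.2% in the HC table and 30.9 to 48.4% elsewhere, and the part of Ctrc, at most 1.07% (KC 1), is hardly visible.

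Klk1 (chr7:44225360-44229618, + strand), which encodes tissue kallikrein, the enzyme that releases kinins from kininogen, had 5477, 4743 and 2932 CPM in MC and 4490, 4857 and 5593 CPM in the controls. MC 3 was the lowest and the others lay inside the control range (log2 fold change -0.52, SE 0.40, edgeR adjusted p = 0.53). For HC the levels were 287, 432 and 353 CPM against 509 and 319 CPM. In KMC it had 3901 and 2073 CPM against 4116 and 4161 CPM, and its part of the protease counts was 1.45 and 1.51% against 1.04 and 1.27%, higher without overlap. The related Klk1b genes were far less abundant, the highest in the MC table being Klk1b5 and Klk1b4 with means of 94.8 and 28.4 CPM. Of the Klk1b genes tested, 8 of 8 had a negative log2 fold change in MC and 8 of 8 in KMC with TMM scaling. With library size alone their median in KMC was -0.20, where that of all genes was 1.47. In CPM of total counts 2 were higher and 2 lower without overlap, against 85% of all genes higher and 1.28% lower. In these comparisons edgeR called 0 of them, 1 and 4 had an unadjusted p below 0.05 (5.46% and 9.48% of all genes were lower at that level), and DESeq2 called 0 and 3 lower, in KMC against 4.47% of all genes.

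Among the genes that act on these proteases, Spink1, the trypsin inhibitor of the acinar cell, had 1164, 917 and 1001 CPM in MC and 937, 972 and 937 CPM in the controls. Per 1000 trypsinogen counts, Spink1 had 12.5, 10.3 and 9.13 counts in MC and 8.39, 10.4 and 8.08 in the controls, with overlap. In KMC Spink1 had 720 and 253 CPM against 1149 and 744 CPM, and per 1000 trypsinogen counts 6.00 and 4.41 against 7.88 and 5.99. Serpini2, the next most abundant inhibitor of the MC table, had a log2 fold change of -0.17 in MC (SE 0.39) and -1.26 in KMC (SE 0.92). Of the protease inhibitors tested, edgeR called 0 of 7 in MC, 1 of 8 in HC and 0 of 7 in KMC, against 0%, 0.565% and 0.0191% of all genes. DESeq2 called 1 higher in MC (3.11% of all genes), 1 in HC (1.45%) and 1 in KMC (9.25%). It called 2 lower in KMC (4.47% of all genes) and 1 lower in HC, where it called 468 of 18407 genes in either direction. The inhibitor that edgeR called in HC was Pzp, a broad protease inhibitor of the macroglobulin family. Pzp had 16.2, 21.8 and 16.2 CPM against 5.69 and 7.14 CPM (log2 fold change 1.53, SE 0.20, edgeR adjusted p = 0.045, and 4.68e-09 to 0.24 over the alternatives).

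Cathepsin B (Ctsb) had 704, 877 and 1257 CPM in MC and 639, 1083 and 388 CPM in its controls, and 453 and 1666 CPM in KMC against 150 and 148 CPM in KC. The log2 fold change in KMC was 1.17 (SE 0.65, edgeR adjusted p = 0.29). Cathepsin L (Ctsl), which degrades trypsinogen, had a log2 fold change of -0.29 in MC (SE 0.28) and 0.19 in KMC (SE 0.50). Enteropeptidase (Tmprss15) had 0 counts in all 5 libraries of the HC table and at most 0.183 CPM in the KMC table. Protease-activated receptors are cut by trypsin and thrombin on the cell surface. F2r had 11.6 and 70.4 CPM in KMC against 0.861 and 2.59 CPM in KC (log2 fold change 2.99, SE 0.65, edgeR adjusted p = 0.080), and F2rl1, the receptor that trypsin cleaves, had 3.88 and 22.6 CPM against 1.42 and 1.42 CPM. Of the 4 receptor genes, edgeR called 0 in each comparison, while 0 (MC), 2 (HC) and 3 (KMC) had an unadjusted p below 0.05 and DESeq2 called 1 higher in KMC. In HC, 3 of the 4 had a negative log2 fold change, and 8.39% of all genes were higher and 7.47% lower at an unadjusted p below 0.05. In MC these shares were 9.2% and 5.46%. Of all genes in KMC, 16.1% were higher and 9.48% lower at an unadjusted p below 0.05, and DESeq2 called 9.25% higher.

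Acinar transcription factors and other secreted enzymes were listed beside the proteases. In KMC, 8 of 10 factors and 16 of 16 other acinar secretory genes had a negative log2 fold change, with medians of -1.04 and -2.05 under TMM scaling. With library size alone the median of the factors turned to 0.23 and that of the secretory genes was -0.74, and the factors summed to 1133 and 1055 CPM of total counts in KMC against 800 and 1014 CPM in KC. Ptf1a had 10.5 and 8.39 CPM against 13.4 and 13.1 CPM, and Xbp1, the most abundant of the list, had 362 and 427 CPM against 375 and 347 CPM. Bhlha15, the factor that shapes the secretory apparatus, had a log2 fold change of -1.06 in MC (SE 0.49, edgeR adjusted p = 0.36), and the lipase Pnlip, the most abundant of the other secretory genes there, had -1.42 (SE 0.65, edgeR adjusted p = 0.36). In MC, 5 of 10 factors and 15 of 15 other acinar secretory genes had a negative log2 fold change, with medians of -0.06 and -0.64. No gene of either list passed the edgeR threshold in any comparison. In KMC, 5 of the 10 factors and 2 of the 16 secretory genes had an unadjusted edgeR p below 0.05, where 16.1% of all genes were higher and 9.48% lower. DESeq2 called 1 factor higher, 4 factors lower and 16 of the 16 secretory genes lower, against 9.25% of all genes higher and 4.47% lower.

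The 5 genes whose pattern over the 15 libraries was most like that of the summed proteases were Sycn, Cpb1, Gcat, Tmed6 and Cpa1. The measure was the root mean square difference of log2 CPM, each gene centred within its table, among 6829 genes with a mean of at least 10 CPM in each table. It was 0.12 for Sycn and Cpb1, 0.15 for Gcat, and 0.16 for Tmed6 and Cpa1, against a median of 0.74 over all genes ranked. Of the 10 proteases themselves, Ctrb1 was the closest to the sum (0.12), of which it is the largest part, and Prss2 (0.14), Cela3b (0.16) and Try5 (0.17) followed. Try4 (0.35) and Ctrc (2.25) were the farthest, and of the minor trypsinogens Gm10334 had 1.46.

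Markers of other cell types differed beside these values. In KMC the 5 fibroblast markers summed to 2502 and 13077 CPM against 194 and 647 CPM in KC, the 8 leukocyte markers to 359 and 966 CPM against 21.2 and 84.7 CPM, and the 7 ductal markers to 689 and 1676 CPM against 237 and 312 CPM. KMC 2, the library of this table lowest in the proteases, was the highest of the table in all 3 lists. The ductal and fibroblast sums of KC lay below those of the MC controls, at 757 to 2025 and 658 to 2585 CPM, in a table prepared separately. These are CPM of total counts, in which 85% of all genes were higher in KMC, and 12 housekeeping genes summed to 1166 and 3600 CPM against 477 and 485 CPM. With TMM scaling, the median log2 fold changes were 2.63 (fibroblast), 1.89 (leukocyte) and 0.82 (ductal), against 0.03 over all genes, and edgeR called 0 of each list. DESeq2 called 4 of 5 fibroblast, 4 of 8 leukocyte and 3 of 7 ductal markers higher, against 9.25% of all genes. It called 1 ductal marker lower, against 4.47% of all genes. In MC the 4 adipocyte markers summed to 69.4 to 162 CPM against 28.2 to 37.0 CPM and the leukocyte markers to 279 to 461 CPM against 69.9 to 273 CPM. In HC the leukocyte markers were lower, at 696 to 1045 CPM against 1993 to 2176 CPM, and the gut markers higher, at 942 to 1152 CPM against 448 to 457 CPM. The edgeR threshold was passed in HC by 1 of 8 leukocyte markers, the B cell marker Cd79a (lower), and by 1 of 4 gut markers, Lgals4 (higher). Of all genes, 0.565% passed it there in either direction. DESeq2 called 2 of 4 gut, 2 of 3 stomach and 1 of 7 ductal markers higher in HC, against 1.45% of all genes. It called 2 of 8 leukocyte markers lower, where it called 468 of 18407 genes in either direction. The part of these cells in the protease levels was not tested. Of the salivary gland markers, 4 of 5 were at 0 in every library of the HC table.

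The differences between the comparisons were tested in 1 fit over all 15 libraries. None of the 10 genes was called for the MC effect minus the HC effect, against 0.953% of 14906 genes, or for the KMC effect minus the MC effect, against 0% of them, by edgeR's quasi-likelihood test, where 2087 and 3414 genes had an unadjusted p below 0.05. The median of the 10 genes was -0.88 for the first difference and -1.52 for the second. For Ctrc, the values were -4.11 (SE 2.38, edgeR adjusted p = 0.47) and -8.00 (SE 2.61, edgeR adjusted p = 0.15). Without KC 2 the second was -8.96 (edgeR adjusted p = 0.035) and without KC 1 it was -3.62 (adjusted p = 0.56), where the 1 KC library left was assumed to vary like the other groups.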

How the data were processed

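RNA-Seq of mouse pancreas was analysed in 15 libraries. The authors aligned reads with STAR to GRCm38, counted them per GENCODE gene and deposited raw counts, without normalization; the submitters' processing notes also name STAR 2.6.1a and HTSeq 0.6.1. The labels name a KAPA stranded kit for the HC and KMC tables and a standard Illumina protocol for the MC table, which lists 15175 genes against 49585. A deposited table of DESeq2 fold changes and p-values (MC against control) was not used.

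Within each table, genes were filtered with filterByExpr, scaled by TMM and tested with edgeR 4.0.16 (glmQLFit, glmQLFTest) in R 4.3.3, with Benjamini-Hochberg adjustment over all genes tested. Shares of counts were compared with exact permutation tests, two-sided. Alternatives were DESeq2 1.42.0, other scalings and filters, summed trypsinogens, the replicate number as a block and leaving out each library. The edgeR fit was also run on simulated counts. P-values measure the spread between libraries, each a pool of 3 mice. No 2 libraries of a group agreed within sampling noise.

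The 10 genes and all lists were chosen with earlier results of these data known. By rule, values are given for the 10 genes, and of each other list for those passing the threshold and the 2 most abundant (marker lists are given as sums), with Map4k1 and the 5 genes of most similar pattern. Prss1, Gm5771, Gm10334, Try10, 1810009J06Rik, Ptf1a, Tmprss15 and Ctrcos were added after their values were seen. Positions are from GENCODE M21 (GRCm38). 1 allele that the KC and KMC groups share is not reported here.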

Additional observations from a re-analysis of the deposited data

How the results depend on the processing

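Of 630 recomputed values for 81 results, 542 stayed the same, 27 changed sign, 17 passed the threshold that they had missed and 44 moved. Staying the same meant keeping the direction and the side of the threshold or, for a count of genes called, lying near the main count. The count of genes called differed by tool: DESeq2 called 453 genes in MC, 468 in HC and 2159 in KMC, where edgeR called 0, 104 and 3. Library size alone gave 1 gene in MC and 4714 in KMC, library size without the acinar secretory genes 50 in HC and 1345 in KMC, and no filter 395 in HC and 9 in KMC. Of the 10 proteases, DESeq2 called 1 in HC and 10 in KMC, no filter gave 1 in HC and library size alone 1 in KMC, Ctrc in the single cases. Library size alone moved the median of the 10 genes for the KMC effect minus the MC effect to -0.47.

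In MC the replicate numbers showed no steady pairing: deviations of same-numbered libraries correlated at 0.086, 0.314 and -0.365. The 2 same-numbered pairs correlated at 0.214 and 0.202 in HC and at 0.07 each in KMC. There, 2 libraries of a group deviate as mirror images, so the correlations are tied to each other and pairing cannot be judged. With the replicate number as a block, 339 genes were called in HC and 2464 in KMC, 1 of the 10 proteases (Ctrc) was called in KMC, and in HC the log2 fold change of Try4 was -0.28 and that of Ctrb1 0.11.

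Leaving out 1 library at a time gave 0 to 718 genes called in MC (718 without control 2), 0 to 379 in HC (379 without HC 1) and 0 to 2312 in KMC (2312 without KMC 1). It gave 0 to 1 of the 10 proteases in HC, in KMC and for the KMC effect minus the MC effect, whose median ranged from -2.74 to -0.91. Where 1 library was left in a group, it was assumed to vary like the other groups. In HC the median ranged from -0.13 to 0.24, and the log2 fold changes from -0.43 to 0.14 (Prss2), -0.073 to 0.54 (Try4), -0.38 to 0.14 (Try5), -0.24 to 0.19 (Ctrb1), -0.13 to 0.25 (Cela2a), -0.24 to 0.28 (Cela3b) and -0.51 to 0.22 (Klk1). For Ctrc in MC they ranged from -0.58 to 2.35. The difference of the protease share in HC ranged from -0.71 to 0.38 points, and that of the trypsinogen share from -0.83 to 1.67 points in MC and -1.86 to 0.055 in HC. With the trypsinogen genes summed, their log2 fold change in HC was -0.069 where that of Try4 was 0.17, and with log2 shares the trypsinogen share in MC differed by -0.0039. The cause of these changes was not tested. With 2 or 3 libraries a group, exact tests could not reach 0.05.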
